A study of Mus musculus with 4 samples.

Results

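Bcat1, Bcat2, Bckdha, Bckdhb, Dbt, Bckdk, Ppm1k, Ivd, Mccc1 and Mccc2 encode enzymes that break down the branched-chain amino acids leucine, isoleucine and valine, together with the kinase and the phosphatase that control this route. The genes were chosen by name. Every probe whose gene name in the scanner output was one of these symbols was taken, which gave 14 probes for all 10 genes, out of 55681 probes and 22066 genes on the array. Transcripts were measured in interscapular brown adipose tissue (iBAT) and epididymal white adipose tissue (eWAT) of WT mice and of mice that lack ASK1, a stress-activated kinase encoded by Map3k5, in the whole body (ASK1KO in the labels). All mice were C57BL/6J males aged 10 weeks under normal conditions, without an agent or a transgene. Each of the 4 groups (WT iBAT, ASK1-deficient iBAT, WT eWAT and ASK1-deficient eWAT) was read on 1 Cy3 array that held RNA of 3 mice in a pool. WT and ASK1-deficient mice came from separate colonies, so that genotype and colony cannot be told apart. With 1 array per group, the spread between mice is unknown and no test was possible within a tissue.

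Breakdown of these amino acids starts in the mitochondrion, or in the cytosol with the Bcat1 enzyme, when an aminotransferase removes the amino group. The branched-chain ketoacid dehydrogenase complex then commits the carbon skeleton to oxidation. Its kinase Bckdk switches the complex off by phosphorylation and the phosphatase Ppm1k switches it on. Leucine carbon goes on through isovaleryl-CoA dehydrogenase (Ivd) and the biotin enzyme methylcrotonyl-CoA carboxylase (Mccc1 and Mccc2) to ketone bodies and acetyl-CoA, and isoleucine and valine carbon feeds propionyl-CoA. Adipocytes are known to use these amino acids for fatty acid synthesis, and active brown fat burns them.

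A probe counted as measured where the scanner software called it well above background. By this measure, 28985 to 33389 probes were measured on the 4 arrays, and no spot was saturated. The signal of each array was divided by its own 75th percentile, which was 356 (WT) and 371 (ASK1-deficient) in iBAT, and 673 (WT) and 634 (ASK1-deficient) in eWAT. Scaled signals below are these ratios, which compare arrays for 1 probe and never 1 probe with another. Of the 2 Map3k5 probes, probe 1 was lower in ASK1-deficient tissue by a log2 ratio of -2.0 in iBAT and -1.76 in eWAT, whereas probe 2 gave -0.06 and -0.51. The tissue labels were checked on Ucp1, the uncoupling protein of brown fat, whose signal was 343275 (WT) and 263161 (ASK1-deficient) in iBAT, and 6603 (WT) and 252 (ASK1-deficient) in eWAT. Of 8 epididymal epithelium genes, 7 were not well above background on any array, and Rnase10 was measured on all 4.

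The sequences show what the arrays read. Bcat1 and Mccc1 are shown with each of their probes, because the level of Bcat1 rests on which probe was bright enough and because the largest genotype difference was that of Mccc1, and the others are the sole probes of the aminotransferase and dehydrogenase genes with large values below. Each line gives 30 of the 60 bases of a probe, 5′ to 3′ in the sense of the transcript, and capitals mark the polyadenylation signal letters AATAAA.
Bcat1 probe 1: gagcaggacactttgtttcttttgctggtg
Bcat1 probe 2: acgatggagaatggccccaagcttgcaagt
Bcat1 probe 3: caatcgacacattcctcactgttggcaggt
Bcat2: tcctggtgttcaagggagaaccttggcttc
Bckdha: aggctacttcactggggcaccatgtttgca
Bckdhb: ggtgttgtattcAATAAAgccaaattacat
Mccc1 probe 1: ctagatctcggagagaggagctttattaaa
Mccc1 probe 2: agaaactttgggaaagccttcctctgtttc
On mm9, the Bcat1 probes lie on the minus strand at chr6:144948396-144948455 (probe 1), chr6:144952871-144952930 (probe 2) and chr6:144942376-144942435 (probe 3). The Bcat2 probe lies at chr7:52844940-52844999 on the plus strand, that of Bckdha at chr7:26415094-26415153 on the minus strand and that of Bckdhb at chr9:84017787-84017846 on the plus strand. The Mccc1 probes lie on the minus strand at chr3:35858790-35858849 (probe 1) and chr3:35858227-35858286 (probe 2). The Bckdhb probe was the only 1 of the 14 that held AATAAA, as did 5602 of all 55681 probes (10.1%). Exons and untranslated regions were not assigned, since no genome of that build was used.

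**Figure D1:**
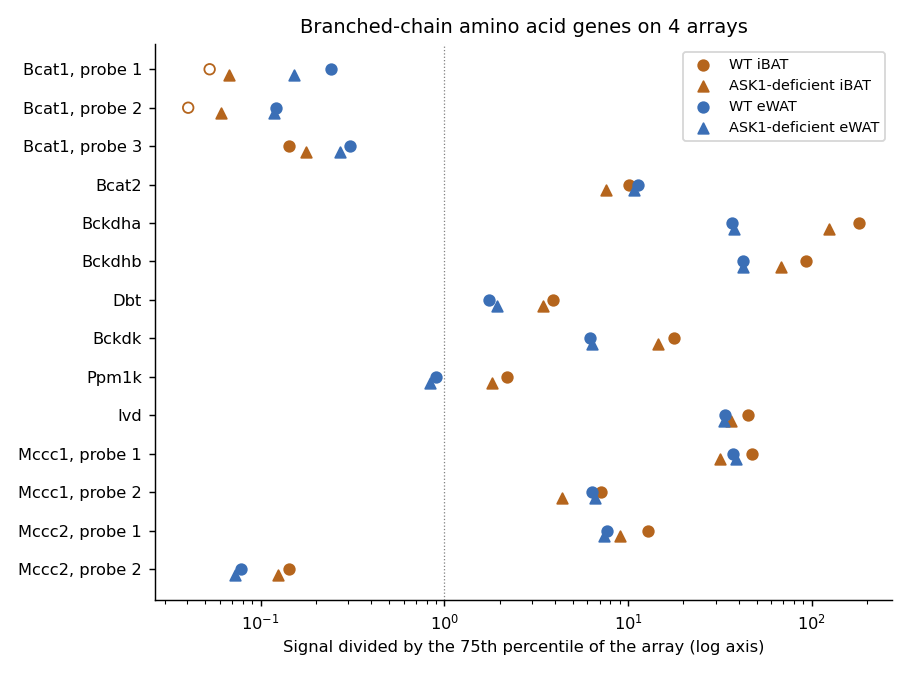
Scaled signal (signal divided by the 75th percentile of the array, log axis) of the 14 probes on the 4 arrays, brown for iBAT, blue for eWAT, circles for WT and triangles for ASK1-deficient mice. Open symbols mark the 2 values not well above background, and levels are to be compared along a row only. Bckdha reached 180 in WT iBAT and 36.9 in WT eWAT.

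The aminotransferases were the 2 members that did not stand higher in iBAT than in eWAT in either genotype. Bcat1, the cytosolic form, was dim in iBAT. Its probe 3, the only Bcat1 probe well above background on all 4 arrays, had a scaled signal of 0.143 (WT) and 0.177 (ASK1-deficient) in iBAT, and 0.307 (WT) and 0.272 (ASK1-deficient) in eWAT. Both eWAT arrays were thus above both iBAT arrays. Probes 1 and 2 gave 0.053 and 0.040 in WT iBAT, where neither was well above background. In ASK1-deficient iBAT probe 1 gave 0.067, at least 1.21-fold higher than WT, and probe 2 gave 0.061, at least 1.10-fold higher. In WT eWAT, probe 1 gave 0.242 and was at least 4.37-fold higher than in WT iBAT, and probe 2 gave 0.122 and was at least 2.20-fold higher. These bounds set the bright array against the lowest signal well above background on the dim array, or the dim signal where that was higher. In eWAT the 3 probes disagreed on the size of the genotype difference, with log2 ratios of -0.67, -0.04 and -0.18 for probes 1, 2 and 3.

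Bcat2, the mitochondrial aminotransferase, had a scaled signal of 10.1 (WT) and 7.56 (ASK1-deficient) in iBAT, and 11.3 (WT) and 10.7 (ASK1-deficient) in eWAT. ASK1-deficient iBAT was the low array, and the other 3 lay close together. The difference between genotypes was a log2 ratio of -0.42 in iBAT and -0.07 in eWAT.

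The dehydrogenase complex genes had higher scaled signals in iBAT than in eWAT. Bckdha, which encodes the alpha subunit of the E1 component, had a scaled signal of 180 (WT) and 123 (ASK1-deficient) in iBAT, and 36.9 (WT) and 37.6 (ASK1-deficient) in eWAT. Both iBAT arrays stood well above both eWAT arrays, and the genotypes differed in iBAT by a log2 ratio of -0.55 and in eWAT by 0.02. Bckdhb, for the beta subunit of E1, had 93.2, 68.3, 42.3 and 42.2 in the same order of arrays. It had the same order as Bckdha within iBAT, with a log2 ratio of -0.45, and almost equal signals in eWAT, with -0.0026. Dbt, for the E2 core that carries the lipoyl arm, had 3.90, 3.43, 1.75 and 1.93. Its genotype difference was a log2 ratio of -0.18 in iBAT and 0.14 in eWAT. The E1 subunits, which form 1 enzyme, did not keep 1 ratio between tissues: the difference between iBAT and eWAT was larger for Bckdha than for Bckdhb by 1.15 on the log2 scale in WT and by 1.02 in ASK1-deficient mice. These last values do not depend on how the arrays were scaled by a constant.

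The kinase and the phosphatase act in opposite directions on the complex. Bckdk had a scaled signal of 17.9 (WT) and 14.6 (ASK1-deficient) in iBAT, and 6.23 (WT) and 6.34 (ASK1-deficient) in eWAT. Ppm1k had 2.21, 1.82, 0.904 and 0.834 in that order. Each had its higher pair of values in iBAT, and there both were lower in ASK1-deficient mice, by log2 ratios of -0.29 for Bckdk and -0.28 for Ppm1k. In eWAT the ratios were 0.03 and -0.12. The genotype difference of Bckdk minus that of Ppm1k was -0.018 in iBAT and 0.14 in eWAT, against a median SD over repeat spots of 1 probe of 0.087 and 0.060 in those comparisons. The tissue difference of Bckdk was larger than that of Ppm1k by 0.23 in WT and 0.074 in ASK1-deficient mice on the log2 scale, against a median SD over repeat spots of 0.084 and 0.069. These SDs are for the ratio of 1 probe, and a difference between the genes carries the spot noise of both probes.

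The genes of the lower leucine steps differed among themselves. Ivd had a scaled signal of 45.0 (WT) and 36.4 (ASK1-deficient) in iBAT, and 33.5 (WT) and 33.4 (ASK1-deficient) in eWAT. Mccc1, the biotin-carrying subunit of the carboxylase, had 47.5, 31.6, 37.2 and 38.8 at probe 1. Probe 2 of Mccc1 gave 7.09, 4.36, 6.38 and 6.63. At both Mccc1 probes WT iBAT was the highest array and ASK1-deficient iBAT the lowest, so that the eWAT arrays lay between them. The Mccc1 log2 ratio in iBAT was -0.59 at probe 1, -0.70 at probe 2 and -0.64 for the gene, and in eWAT the gene had 0.06. Mccc2, the other subunit of the same enzyme, had 12.8, 9.04, 7.68 and 7.39 at probe 1, with a log2 ratio of -0.50 between genotypes in iBAT and -0.06 in eWAT. Probe 2 of Mccc2, designed on another transcript, was dim, with 0.143, 0.124, 0.078 and 0.073, and gave -0.21 and -0.11. The gene value of Mccc2, the mean over its probes, was -0.36 in iBAT and -0.08 in eWAT, and the value at probe 1 alone lies nearer to that of Mccc1.

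**Figure D2:**
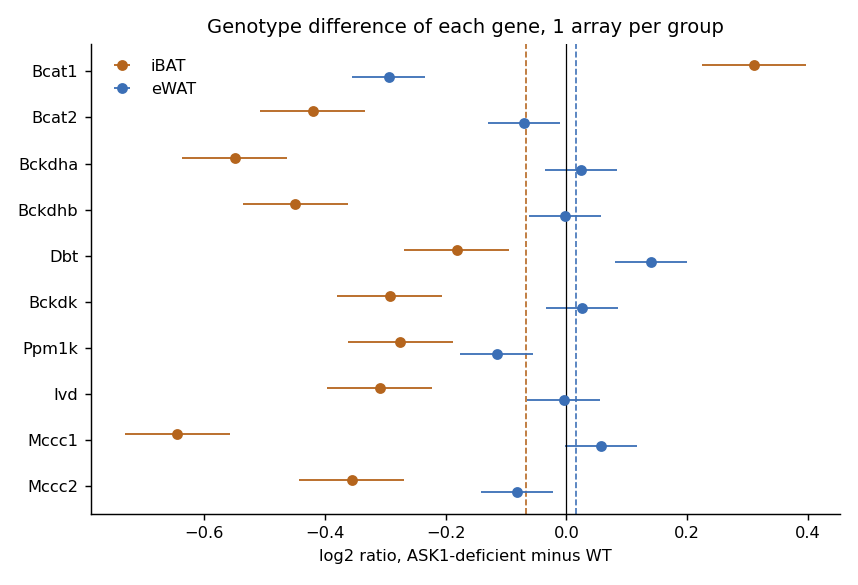
Log2 ratio, ASK1-deficient minus WT, of each of the 10 genes in iBAT (brown) and eWAT (blue), with bars for the median SD over repeat spots of a probe (0.087 in iBAT and 0.060 in eWAT), which covers spot noise and not mice. Dashed lines give the median of all genes measured, -0.066 in iBAT and 0.015 in eWAT. Of the 10 genes, 9 lie left of the iBAT median and Bcat1 lies right of it.

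By genotype, 9 of 10 genes were lower in ASK1-deficient than in WT iBAT, from Mccc1 at -0.64 (1.56-fold lower) to Dbt at -0.18 (1.13-fold lower), and Bcat1 was higher by 0.31 from its 1 measured probe. Of all 14377 genes measured in iBAT, 59.5% were below 0. The median of the 10 was -0.33 and that of all genes was -0.066. The same 9 genes were below the median of all genes under the main scaling and under each of 8 alternatives of background correction, scaling, filter or choice of probe. Of these, the percentile over probes measured on all 4 arrays, no scaling, median centring and the series table shift each array by 1 constant. They move all genes alike and could not change the side of the median. Normexp, quantile normalization, the filter and the choice of probe could. The share of all genes below 0 moved with the scaling, to 44.9% with the percentile taken over probes measured on all 4 arrays and to 69.7% with the series table. All differences were under 2-fold: 0 of 10 passed that size, against 1.85% of all genes in iBAT. Of all genes, 3.25% had a lower value than Mccc1, 4.99% than Bckdha, 8.22% than Bckdhb and 9.77% than Bcat2. For the other 5 genes below 0 the share was between 13.9% for Mccc2 and 33.7% for Dbt, and 86.7% of genes lay below Bcat1.

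In eWAT the genotype differences of the same genes lay closer to 0. Of the 10 genes, 6 were below 0, against 45.9% of all 15377 genes measured, and the median was -0.0037, against 0.015 for all genes. The count moved with the scaling, to 9 of 10 without it (68.9% of all genes), 8 of 10 after quantile normalization (49.6%) and 4 of 10 with median centring (43.6%) or the series table (39.8%). The values ran from -0.29 for Bcat1 to 0.14 for Dbt. Bcat1, the 1 gene above 0 in iBAT, was the lowest of the 10 in eWAT. None was 2-fold apart, against 1.15% of all genes. In 5 genes (Bckdha, Bckdhb, Bckdk, Ivd and Mccc1) the eWAT ratio was smaller in size than the median SD over repeat spots.

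**Figure D3:**
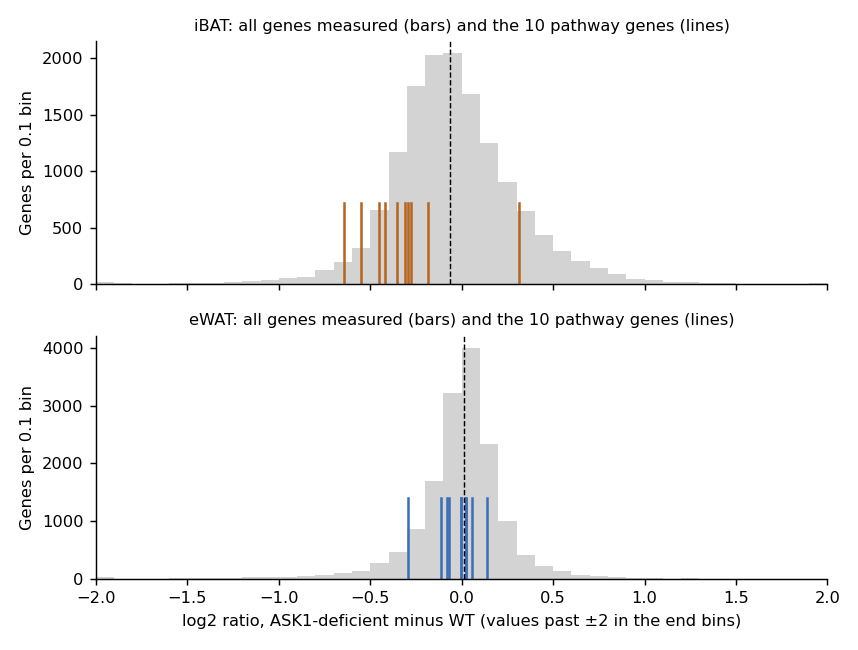
Number of genes per bin of 0.1 in the log2 ratio, ASK1-deficient minus WT, for all genes measured in iBAT (upper panel, 14377 genes) and eWAT (lower panel, 15377 genes), with the 10 branched-chain amino acid genes as coloured lines and the median of all genes dashed. In iBAT 9 lines lie left of the median and all 10 lie inside 2-fold (-1 to 1). In eWAT they run from -0.29 to 0.14.

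A fit over all 4 arrays held genotype and tissue as additive terms (limma, Benjamini-Hochberg adjustment over 14057 genes). This fit takes the genotype difference as equal in both tissues, and its 1 residual degree of freedom holds the unequal part, not the spread between mice. For genotype it called 0 of 10 members and 0% of all genes at an adjusted p under 0.05. The lowest adjusted p of a member was 0.98, and at an unadjusted p under 0.05 there were 770 genes, with 0 members among them. Under normexp background correction, median centring and the series table the same limma fit called 24, 139 and 128 genes for genotype, and 0 members under each. With median centring all members had the same SE (0.236), as they did with the series table (0.240). Those fits thus used no variance of the single member, unlike the main fit.

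Between tissues the fit called 6 of 10 members higher in iBAT, against 30.8% of all genes, and 1 of 10 lower, against 24.6%. Bckdha had the largest difference, 2.0 ± 0.18 on the log2 scale (SE, adjusted p 2.9e-04 by limma), with 2.29 in WT (4.88-fold) and 1.71 in ASK1-deficient mice (3.28-fold). Bckdk followed with 1.36 ± 0.16, Ppm1k with 1.21 ± 0.15, Dbt with 0.99 ± 0.16, Bckdhb with 0.92 ± 0.17 and Mccc2 with 0.67 ± 0.15 (SE). Their adjusted p-values in this limma fit ran from 7.1e-04 for Bckdk to 0.012 for Mccc2. Each of these 6 genes was higher in iBAT on both the WT and the ASK1-deficient arrays. Bcat1 was lower in iBAT by -0.86 ± 0.17 (SE, limma adjusted p 0.0069), a value from probe 3 alone.

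The remaining 3 genes were not called. Bcat2 had a difference of -0.33 ± 0.16 (SE, limma adjusted p 0.13), Ivd of 0.27 ± 0.16 (SE, adjusted p 0.18) and Mccc1 of -0.10 ± 0.20 (SE, adjusted p 0.70). The tissue difference of Mccc1 was 0.25 on the log2 scale in WT mice and -0.45 in ASK1-deficient mice, with opposite signs. Both were below 0 after quantile normalization (-0.037 and -0.55) and without scaling (-0.67 and -1.22). The median tissue difference of the 10 genes was 0.97 in WT, against 0.12 for all genes, and 0.61 in ASK1-deficient mice, against 0.026. Within a genotype, Bckdha stood above Bcat2 in its tissue difference by 2.44 in WT and by 2.22 in ASK1-deficient mice on the log2 scale.

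The tissue calls depended on the scaling, because the eWAT arrays were brighter for most genes (81.7% of genes in WT and 82.6% in ASK1-deficient mice without scaling). Without scaling, the median of all genes in the fit was -0.77 (0.07 with it), and the calls of the members changed from 6 higher and 1 lower to 3 higher (Bckdha, Bckdk and Ppm1k) and 4 lower (Bcat1, Bcat2, Ivd and Mccc1). Of all genes, 9.13% were then called higher and 68.2% lower. Bckdhb and Dbt were then no longer called, with 0.07 (limma adjusted p 0.66) and 0.14 (adjusted p 0.36), and Ivd and Mccc2 turned to -0.57 (adjusted p 0.014) and -0.18 (adjusted p 0.25). Bcat1 was no longer called under normexp, with -0.32 (limma adjusted p 0.051), nor was Mccc2 without the filter on dim probes (limma adjusted p 0.053).

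**Figure D4:**
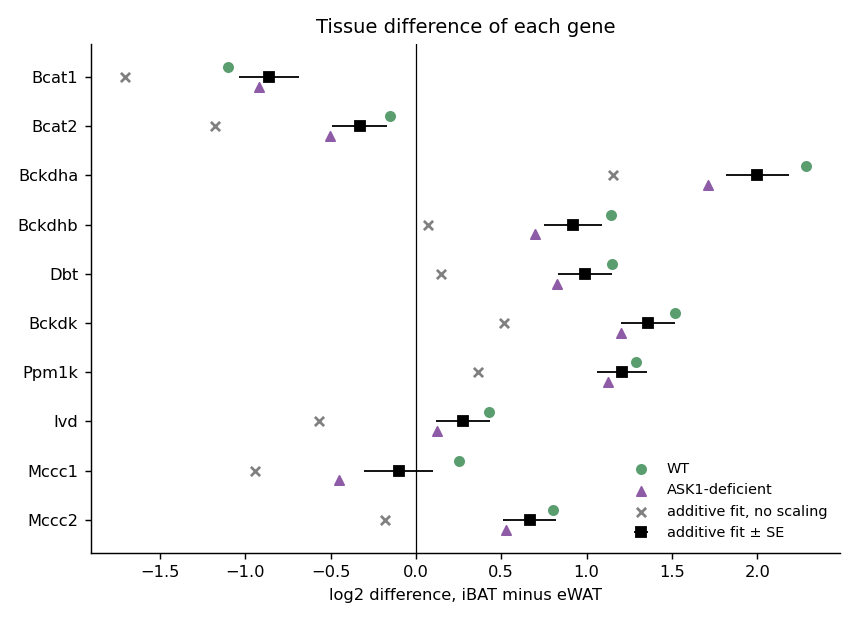
Log2 difference, iBAT minus eWAT, of each of the 10 genes in WT (circles), in ASK1-deficient mice (triangles) and in the additive fit (squares, bars for the SE), with the fit on unscaled signals as crosses. Bckdha is highest at 2.0 and Bcat1 lowest at -0.86, and every cross lies left of its square.

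Other transcripts moved with these comparisons. In bulk tissue, fewer cells of a type and less RNA per cell cannot be told apart. A list of 15 mitochondrial genes (respiratory chain and citric acid cycle among them) was below 0 in ASK1-deficient iBAT for 15 of 15, against 59.5% of all genes, with a median log2 ratio of -0.20. Of the 15, 12 lay below the median of all genes (-0.066), and 12 were below 0 with the percentile over commonly measured probes. Its summed scaled signal was 7229 (WT) and 6445 (ASK1-deficient) in iBAT, and 1509 (WT) and 1554 (ASK1-deficient) in eWAT, and 15 of 15 were called higher in iBAT by limma. Of 9 brown adipocyte genes 7 were lower in ASK1-deficient iBAT, with sums of 3997 (WT) and 3404 (ASK1-deficient) in iBAT, and 53.2 (WT) and 21.0 (ASK1-deficient) in eWAT. Of 7 adipocyte genes 5 were lower in ASK1-deficient iBAT, with sums of 2227, 2080, 2223 and 2302 in the order used above. All 6 macrophage genes measured on both iBAT arrays were higher in ASK1-deficient iBAT, with a median log2 ratio of 0.65, as were 6 of 7 fibroblast and progenitor genes, with a median of 0.18. The macrophage sums were 37.5, 46.2, 133 and 125 and the fibroblast sums 157, 190, 483 and 476 in that order. The part of these transcripts in the member values was not tested.

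Transcripts of neighbouring tissues were present too. The sums over 9 skeletal muscle genes were 661 and 672 on the WT and ASK1-deficient iBAT arrays, and 8.99 and 4.74 on the eWAT arrays. Muscle is known to express branched-chain amino acid enzymes, and the part of muscle RNA in the tissue differences was not tested. In eWAT, 8 of 8 hepatocyte genes were well above background in WT and 5 of 8 in ASK1-deficient mice, with a median log2 ratio of -4.03 over the 5 measured on both. The eWAT signal of Alb, the albumin gene, was 3234 (WT) and 158 (ASK1-deficient). In iBAT 3 of the 8 were measured in WT and 8 in ASK1-deficient mice, where Alb had a signal of 115. The part of liver RNA in the eWAT values and genotype ratios of the members was not tested. The hepatocyte sums were 70.9, 68.4, 446 and 428 in the order used above. Most of each sum came from Cyp2e1, a gene of this list that adipose tissue also expresses, with 60.6, 56.5, 422 and 422. The genotype log2 ratio of Cyp2e1 was -0.0042 in eWAT, so that these sums do not show the difference of the other hepatocyte genes. Of 4 white adipocyte genes 2, Hoxc9 and Tcf21, were not well above background in iBAT. The white adipocyte sums were 2.54, 3.31, 25.7 and 32.0, the lymphocyte sums 5.43, 4.05, 6.24 and 5.57 and the endothelial sums 36.2, 32.7, 29.8 and 26.7.

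The rest of the pathway was read from 48 genes in 8 lists, of which 47 were measured (the transporter gene Slc6a15 was not well above background on any array). In iBAT 41 of 47 were below 0 in ASK1-deficient mice, against 59.5% of all genes, with a median log2 ratio of -0.24, and 37 of 47 lay below the median of all genes. With the percentile over commonly measured probes 36 of 47 were below 0, against 44.9% of all genes. In eWAT 9 of 47 were below 0, against 45.9% of all genes, with a median of 0.075, and 10 of 47 lay below the median of all genes. None was 2-fold apart in either tissue. The propionate list starts at propionyl-CoA, where isoleucine and valine carbon arrives. It includes the cofactor genes Mmaa and Mmab and the citric acid cycle genes Suclg1 and Suclg2. Its 8 genes were all lower in ASK1-deficient iBAT with a median of -0.40. The list of isoleucine and valine steps includes Hadha, Hadhb and Acaa2, which also act in fatty acid oxidation. Its 10 genes were all lower with a median of -0.26, 9 of them below the median of all genes. In eWAT the medians of these lists were 0.077 and 0.083. Dld, the E3 subunit that completes the dehydrogenase complex and is shared with pyruvate dehydrogenase, had -0.42 in iBAT and 0.21 in eWAT. The 5 genes of biotin handling and other biotin carboxylases, which share their cofactor with Mccc1, were all lower in ASK1-deficient iBAT with a median of -0.36, and all were above 0 in eWAT with a median of 0.19. Of the 5 regulators, 4 were below 0 in iBAT with a median of -0.22, and 3 were below 0 in eWAT with a median of -0.093. The 7 transporters had 5 genes below 0 and a median of -0.14 in iBAT, and the 7 leucine and mTORC1 sensing genes had 4 below 0 and a median of -0.084.

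Between tissues the fit called 34 of the 47 pathway genes higher in iBAT and 7 lower, with a median of 0.76, against 30.8% and 24.6% of all genes. The 3 highest were Ppara, the fatty acid-activated nuclear receptor, with 4.6 on the log2 scale, Acaa2, a mitochondrial thiolase, with 3.69, and Ppargc1a, the coactivator of mitochondrial biogenesis, with 3.69. The 3 lowest were the amino acid transporters Slc43a1 with -2.20 and Slc7a8 with -1.88, and Hlcs, which attaches biotin to carboxylases, with -1.50. In the isoleucine and valine list the fatty acid oxidation genes Acaa2, Hadhb and Hadha stood highest with 3.69, 3.49 and 3.20. Echs1 followed with 1.75. Suclg1 stood highest in the propionate list with 3.40. By list, limma called 8 of 8 propionate genes, 9 of 10 isoleucine and valine genes and Dld higher in iBAT, and none of these lower. It called 3 of 7 transporters higher and 3 lower, 4 of 5 regulators higher and 1 lower, 2 of 5 biotin genes higher and 1 lower, and 3 of 7 sensing genes higher and 2 lower.

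**Figure D5:**
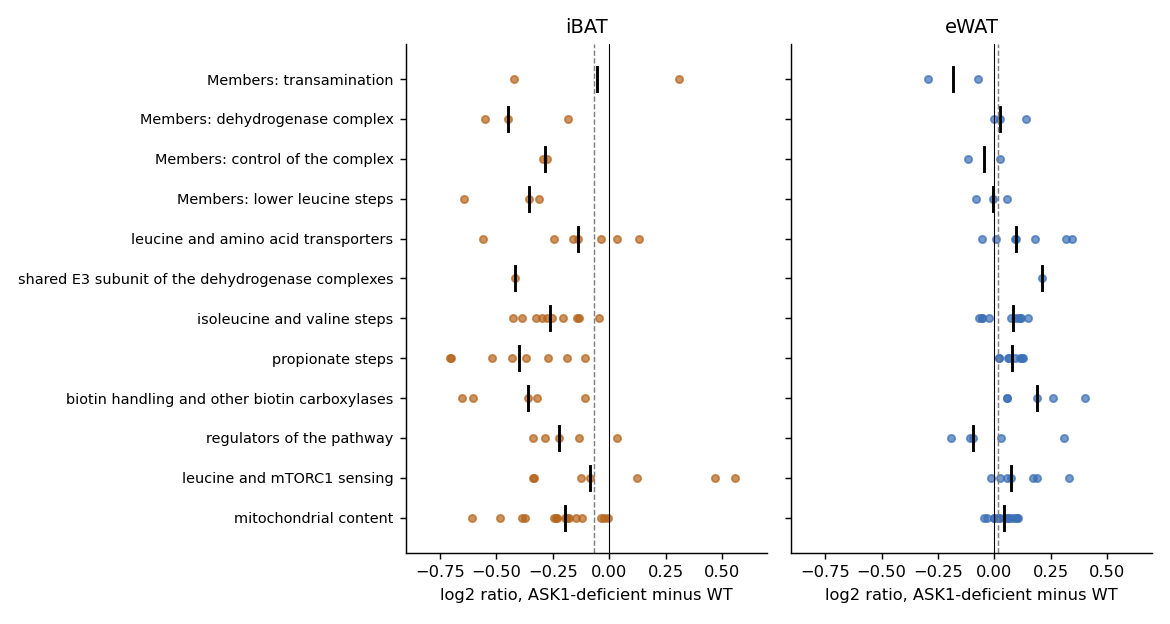
Log2 ratio, ASK1-deficient minus WT, of the 10 members by role, of 7 other pathway lists and of the mitochondrial genes in iBAT (left) and eWAT (right), each point a gene and each black bar the median of its list. The dashed line is the median of all genes measured. In iBAT 8 of 8 propionate genes (median -0.40) and 12 of 15 mitochondrial genes (median -0.20) lie left of the dashed line.

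Promoter sequences of RefSeq on GRCm38.p6 (250 bases before to 50 after the start of a transcript) were given for 9 of the 10 genes, as 12 promoters. They were searched on both strands for 6 motifs, because factors that bind such letters are known to act on energy metabolism genes in adipose tissue. The cAMP response element TGACGTCA was in 0 of the 9 genes and in 1.79% of all 32851 promoters, and its form TGACGCA in 0 and 2.12%. The estrogen-related receptor element AAGGTCA was in 0 and 4.72%, and the PPAR element, a direct repeat of AGGTCA with 1 free base between (letters that can overlap with those of the former), in 0 and 0.0396%. CACGTG, the E-box of ChREBP and clock factors, was in the promoter of Mccc2 and in 7.15% of all promoters. CCCCACCC, a GT box of KLF factors, was in those of Ivd and Mccc1 and in 9.99% of all promoters. The matching stretches upstream of the start are printed with the motif in capitals, in the sense of the gene.
Ivd: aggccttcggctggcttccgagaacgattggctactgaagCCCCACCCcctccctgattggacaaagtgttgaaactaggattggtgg
Mccc1: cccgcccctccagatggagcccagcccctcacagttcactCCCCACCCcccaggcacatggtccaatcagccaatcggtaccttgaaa
Mccc2: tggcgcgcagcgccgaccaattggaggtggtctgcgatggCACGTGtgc
They come from the promoters at chr2:118861744-118862043 (plus strand, motif starting at -63 from the start site), chr3:36000629-36000928 (minus strand, -74) and chr13:100015590-100015889 (minus strand, -9) on GRCm38.p6. A match to these letters is a description of the sequence and no evidence of binding.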

How the data were processed

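RNA of WT and ASK1-deficient iBAT and eWAT was read on 4 arrays of 1 slide, scanned once. The authors deposited the output of Agilent Feature Extraction 10.7.3.1, a linear intensity per spot after background correction, not scaled between arrays. The table of the series deposited by the authors holds the same signal divided by 1 constant per array, with a median of 1. From the processed intensity, log2 was taken, control spots and outlier flags were left out, repeat spots were averaged and each array was set relative to its 75th percentile. For each gene the log2 ratios of its probes were averaged, and only probes well above background on each of the compared arrays were kept. Of 34844 gene names, 22147 matched RefSeq symbols or synonyms. The additive fit used limma 3.58.1 in R 4.3.3. It was also run on simulated data with equal noise for all genes, whose outcome is not given here. Other steps used Python 3.11.15, numpy 2.4.6, pandas 2.3.3 and matplotlib 3.10.9. Precision is limited by the number of arrays. The median SD over repeat spots of a probe (276 probes for genotype in iBAT and 292 in eWAT, 5 or more spots each) covers spot noise only, and each member probe was spotted once.

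The members, the pathway and marker lists and the rule for named genes were chosen with earlier results of these data known. Named were every member probe, Map3k5 as a check of the labels and, of the pathway lists, genes at least 2-fold apart by genotype and the 3 highest and 3 lowest between tissues. Dld, Slc6a15, Rnase10, Alb, Cyp2e1, Hoxc9, Tcf21, Hadha, Hadhb, Echs1, Mmaa, Mmab, Suclg1 and Suclg2 were named after their values were seen. Ucp1 was the check of the tissue labels. Genes alike in pattern were not sought, since 4 arrays give no usable measure of likeness. Tried as alternatives were normexp (offset 50), the percentile over commonly measured probes (well above background on all 4 arrays), quantile normalization, no scaling, median centring, the series table, no filter on dim probes, the brightest probe of a gene and a 1.5-fold threshold. The values of 1 pathway list are not reported here.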

Additional observations from a re-analysis of the deposited data

Results flagged for a closer look

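In 5 of the 10 genes the genotype ratio had opposite signs in iBAT and eWAT. With 1 array per group the differences between tissues were not tested. The iBAT ratio minus the eWAT ratio on the log2 scale was -0.70 for Mccc1, -0.57 for Bckdha, -0.32 for Dbt, -0.32 for Bckdk and 0.61 for Bcat1. In the first 4 the iBAT value was below 0 and the eWAT value above it, and in Bcat1 the order was turned. The eWAT value was below the median SD over repeat spots (0.060) in size for Bckdha, Bckdk and Mccc1, and without scaling it was below 0 in these genes too (-0.063, -0.062 and -0.030). The value of Bcat1 in iBAT rests on probe 3 alone and normexp lowered it to 0.11, whereas its eWAT value is the mean of 3 probes. On probe 3 in both tissues the difference was 0.49.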

How the results depend on the processing

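Of the 10 genes, the number at least 2-fold apart by genotype stayed at 0 under each scaling, and at a 1.5-fold threshold it was 1 in iBAT (Mccc1). The share of all genes at 1.5-fold was not counted, and 3.25% of all genes had a lower value than Mccc1. The median log2 ratio by genotype in iBAT (-0.33) was -0.23 with the percentile over commonly measured probes and -0.24 after quantile normalization. That in eWAT (-0.0037) was -0.076 after quantile normalization and -0.091 without scaling. The median tissue difference in WT (0.97) was 0.86 under normexp, 0.84 with the percentile over commonly measured probes, 0.66 after quantile normalization and 0.05 without scaling. That in ASK1-deficient mice (0.61) was 0.54 under normexp, 0.45 after quantile normalization, -0.16 without scaling, 0.53 with median centring, 0.54 with the series table and 0.49 with the brightest probe.

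Of 80 member values of the additive fit between tissues under 8 alternatives, 69 kept their direction and their side of the threshold. Without scaling Ivd turned to -0.57 and Mccc2 to -0.18, since the eWAT arrays were brighter for most genes. With the brightest probe Mccc1, not called in either case, turned from -0.10 to 0.027. Without scaling Mccc1 was called lower in iBAT (-0.95), as was Bcat2 without scaling (-1.18), under normexp (-0.35) and after quantile normalization (-0.49). Mccc2 was not called without the filter on dim probes (limma adjusted p 0.053). The cause of the last changes was not tested. Without the filter the median tissue difference of all genes was higher by 0.21 in WT and 0.22 in ASK1-deficient mice, and the percentile over measured probes moved that of all genes in the iBAT genotype comparison by 0.10. A slide block was not run because all arrays were on 1 slide. No pairing by mouse was possible because each group has 1 array of pooled mice and the labels give no replicate numbers. The additive fit sets the tissues against each other within a genotype, and the genotypes within a tissue.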
